A study of Mus musculus with 13 samples.

Results

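The 10 genes described here encode secreted activin and BMP signals, their antagonists inside and outside the cell, and the ID proteins: Inhba, Inhbb, Fst, Bmp4, Smad6, Smad7, Id1, Id2, Id3 and Id4. They were taken by symbol, and every probe set that the platform's annotation gives to only 1 of them was included, which found 15 of the 22690 probe sets on the array, at least 1 for each of the 10 of 12394 genes named there. The cells were primary mouse keratinocytes in culture, the main cells of the epidermis. All cultures carried a retrovirus with a fusion of DNp63alpha, the main p63 isoform of basal epidermis, to an estrogen receptor domain that tamoxifen switches on. There was 1 array of untreated cells and 1 at each of 12 times, every 20 min from 20 to 240 min after tamoxifen. The dose of tamoxifen is a detail that the labels leave out. Cells without the fusion and cells without tamoxifen at each time were not analysed here. Effects of elapsed time, of handling and of tamoxifen itself therefore cannot be told apart from those of induction.

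Activins and BMPs are secreted dimers of the TGF-beta family. They bind receptor kinases that phosphorylate SMAD proteins, which enter the nucleus with SMAD4 and switch genes on or off. Activin signals mainly through SMAD2 and SMAD3, and BMP through SMAD1, SMAD5 and SMAD9. Follistatin (Fst) traps activin outside the cell, SMAD6 and SMAD7 block the receptors from inside, and Id1, Id2 and Id3 are classical BMP target genes. ID proteins pair with basic helix-loop-helix factors such as those of Tcf3, Tcf4 and Tcf12 and keep them off DNA, and in keratinocytes they are known for holding back differentiation.

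Of the 10 genes, 7 have a promoter entry in RefSeq's table of assembly GRCm38.p6, and 5 are shown because the results turn on them. They are the pair of activin subunit genes, of which Inhba fell and Inhbb rose on 1 of its probe sets, and 3 ID genes. The tested probe sets of these ID genes were higher on average at 80 to 240 min than at 20 to 60 min. Each run covers the 250 bases before the gene's start, 5′ to 3′ on the gene's own strand. Capitals mark any of 4 motifs: the SMAD box GTCTG, the GC-rich SMAD element GGCGCC and the cAMP response element core TGACG, each on both strands, and the TATA box TATAAA on the gene's strand.
Inhba (chr13:16011601-16011850, plus strand)
Inhba: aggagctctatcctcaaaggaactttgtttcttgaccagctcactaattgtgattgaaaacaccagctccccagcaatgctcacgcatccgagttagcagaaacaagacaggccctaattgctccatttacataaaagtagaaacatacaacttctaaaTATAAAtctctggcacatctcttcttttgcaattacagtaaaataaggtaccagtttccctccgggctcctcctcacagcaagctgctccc
Inhbb (chr1:119422249-119422498, minus strand)
Inhbb: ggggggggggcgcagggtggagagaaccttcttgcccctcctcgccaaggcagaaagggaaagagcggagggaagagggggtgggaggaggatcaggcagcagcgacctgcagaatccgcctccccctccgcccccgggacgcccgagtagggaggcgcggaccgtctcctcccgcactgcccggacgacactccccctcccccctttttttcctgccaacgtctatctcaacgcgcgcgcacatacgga
Id2 (chr12:25096093-25096342, minus strand)
Id2: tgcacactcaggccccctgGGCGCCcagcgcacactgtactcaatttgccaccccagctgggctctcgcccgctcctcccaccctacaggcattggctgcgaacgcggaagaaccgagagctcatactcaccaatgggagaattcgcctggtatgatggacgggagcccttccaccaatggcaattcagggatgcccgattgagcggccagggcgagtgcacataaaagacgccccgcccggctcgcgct
Id3 (chr4:136143572-136143821, plus strand)
Id3: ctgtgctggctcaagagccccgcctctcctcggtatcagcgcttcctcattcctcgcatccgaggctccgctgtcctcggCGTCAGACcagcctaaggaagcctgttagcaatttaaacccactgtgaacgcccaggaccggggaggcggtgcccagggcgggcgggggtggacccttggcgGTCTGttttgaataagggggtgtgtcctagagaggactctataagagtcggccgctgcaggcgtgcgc
Id4 (chr13:48260866-48261115, plus strand)
Id4: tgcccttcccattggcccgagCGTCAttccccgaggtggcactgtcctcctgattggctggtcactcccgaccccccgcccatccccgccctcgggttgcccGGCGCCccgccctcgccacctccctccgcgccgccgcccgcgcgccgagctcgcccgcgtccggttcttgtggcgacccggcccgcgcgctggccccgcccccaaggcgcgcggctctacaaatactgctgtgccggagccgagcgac
The Inhba run had a G and C content of 43.2% and 1 TATA box, and the Inhbb run one of 68% and none of the 4 motifs. The Id3 run held 2 SMAD boxes and 1 cAMP response element core, which shares bases with the first of those boxes. The Id2 run held 1 GC-rich SMAD element, and the Id4 run held 1 such element and 1 cAMP response element core. Among the 32851 promoters of the table, cut to the same 250 bases, 42.2% held the SMAD box, 9.59% the GC-rich SMAD element, 17.8% the cAMP response element core and 7.59% the TATA box. An EGR site, written GCGTGGGCG or GCGGGGGCG on either strand, was in none of the 5 runs and in 3.06% of all. A match describes letters, not a bound site.

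All probe set values are intensities on a linear scale as deposited, and tests used log2(intensity + 16). The median of an array was 237.4 at the lowest and 251.5 at the highest, and changes are therefore relative to the bulk of genes on arrays of near-equal level. Probe sets named to 1 gene were tested if their mean was at or above the 40th percentile (a log2 level of 7.67), which kept 12236 probe sets. Of the 15 described here 11 passed, covering 8 genes, and Bmp4, Smad6, 1 probe set of Id2 and 1 of Id4 were too dim. With 1 array per time there is no replicate. Errors come from how far arrays lay from a fitted line or curve, or from one another within a window of times, and p-values measure only that spread, since no label says that the arrays came from separate cultures. The keratin genes Krt14 and Krt5 stood at percentiles 100 and 99.9 of mean level, while Krt15 was dim (percentile 27.1) and Dsg3 is not among the probe sets named to 1 gene. Some melanocyte genes were also abundant (Dct at percentile 93.9, Tyrp1 at 89.8, Pmel at 89.5). Others were lower (Mitf at 63.5, Tyr at 63.1, Sox10 at 52), and Kit was dim (24.8). Fibroblast genes were low apart from Vim (Col1a1 at 51.3, Col3a1 at 28.3, Lum at 7.14).

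Inhba, which encodes the subunit of activin A, fell most of the 10 genes. Its probe set 1422053_at read 1943 in untreated cells, 1659, 1849 and 1272 at 20, 40 and 60 min, and 1247, 1382, 1251 and 1137 at 80, 100, 120 and 140 min. It then read 749.5, 980.8, 716.1, 552.6 and 939.8 from 160 to 240 min. Every array from 160 min lay below every array before it, a cut chosen from these values. Such separations of arrays, here and below, are descriptions, since the share of all tested probe sets that separate likewise was not counted. The lowest value, at 220 min, was 3.52 times under the untreated one. The straight line over the 13 arrays fell 2.76-fold in 4 h (-1.47 ± 0.197 on the log2 scale, SE; limma adjusted p = 0.000194), the 15th largest slope of the 12236. At 180 to 240 min the log2 level was 9.63 ± 0.376 against 10.55 ± 0.279 at 20 to 80 min (SD, 4 arrays each). The difference was -0.92 ± 0.207 (SE; limma adjusted p = 0.0103), and it was -0.62 with an adjusted p of 0.0905 without the 200 and 220 min arrays, which held the lowest values.

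Inhbb, which encodes the subunit of activin B, went the other way on 1 of its probe sets. The brighter, 1426858_at, read 487.7 untreated and 499.1, 461.2 and 494.3 at 20, 40 and 60 min. From 80 to 160 min it read 529, 614.6, 615.8, 542.4 and 592.1, and from 180 to 240 min 581.2, 681.1, 726.5 and 655.6. No array up to 60 min reached the level of any later array. The line rose 1.45-fold in 4 h (0.54 ± 0.0861 on the log2 scale, SE; limma adjusted p = 0.000439), and the late window was 0.40 ± 0.0702 above the early one (SE; limma adjusted p = 0.00527). The dimmer probe set, 1426859_at, stayed between 221.8 and 286.1 and did not pass (slope 0.02 per hour, 95% interval -0.02 to 0.06; limma adjusted p = 0.493). The difference between the probe sets was not tested.

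Fst, whose product traps activin, gave a strong signal, at percentile 98.8 of mean level. It read 5671, 5644, 5007, 5683 and 5710 from untreated to 80 min, then 6090, 7024, 6302, 6200, 6604, 6004, 6138 and 6372 from 100 to 240 min. All 8 arrays from 100 min lay above the 5 before them, a cut chosen from these values, with the highest at 120 min. The line rose 1.18-fold in 4 h (0.24 ± 0.0791 on the log2 scale, SE; limma adjusted p = 0.0293) and late against early gave 0.19 ± 0.0527 (adjusted p = 0.0233). The slope lost its call when the untreated, 20, 40 or 180 min array was left out, with values from 0.04 to 0.07 per hour over all 13 omissions and adjusted p of 0.0535, 0.057, 0.0686 and 0.052. Late against early lost it without the 40, 180 or 240 min array, with median centring (0.17, adjusted p = 0.0644) and without the 200 and 220 min arrays (0.24, adjusted p = 0.0514).

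The BMP ligand gene Bmp4 was dim and not tested. Its intensity lay between 150.1 (180 min) and 198.5 (100 min) with a median of 168.8, against 172.9 in untreated cells, and the highest array was 1.32 times the lowest. Fitted with all 20393 probe sets named to 1 gene, its slope was -0.01 ± 0.0214 per hour (SE; limma adjusted p = 0.719).

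Of the inhibitory SMAD genes, Smad7 fell and Smad6 was too dim for the test. Smad7 read 395.9, 401.9 and 381.1 up to 40 min, 341.8 at 60 min and 327.6 at 80 min. From 100 to 180 min it read 305.3, 283.8, 283.8, 267.9 and 255.1, and then 306.4, 295.2 and 259.8. Every array from 80 min lay below every array up to 60 min. The line fell 1.48-fold in 4 h (-0.57 ± 0.0939 on the log2 scale, SE; limma adjusted p = 0.000504), and late against early was -0.36 ± 0.0748 (adjusted p = 0.00772). Smad6 was near the bottom of the array, at percentile 7.24, and read between 79.88 (20 min) and 93.63 (200 min). Its slope among all 20393 probe sets was 0.04 ± 0.00983 per hour (SE; limma adjusted p = 0.0138), a fitted 1.11-fold rise of a probe set too dim for the main test.

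**Figure D1:**
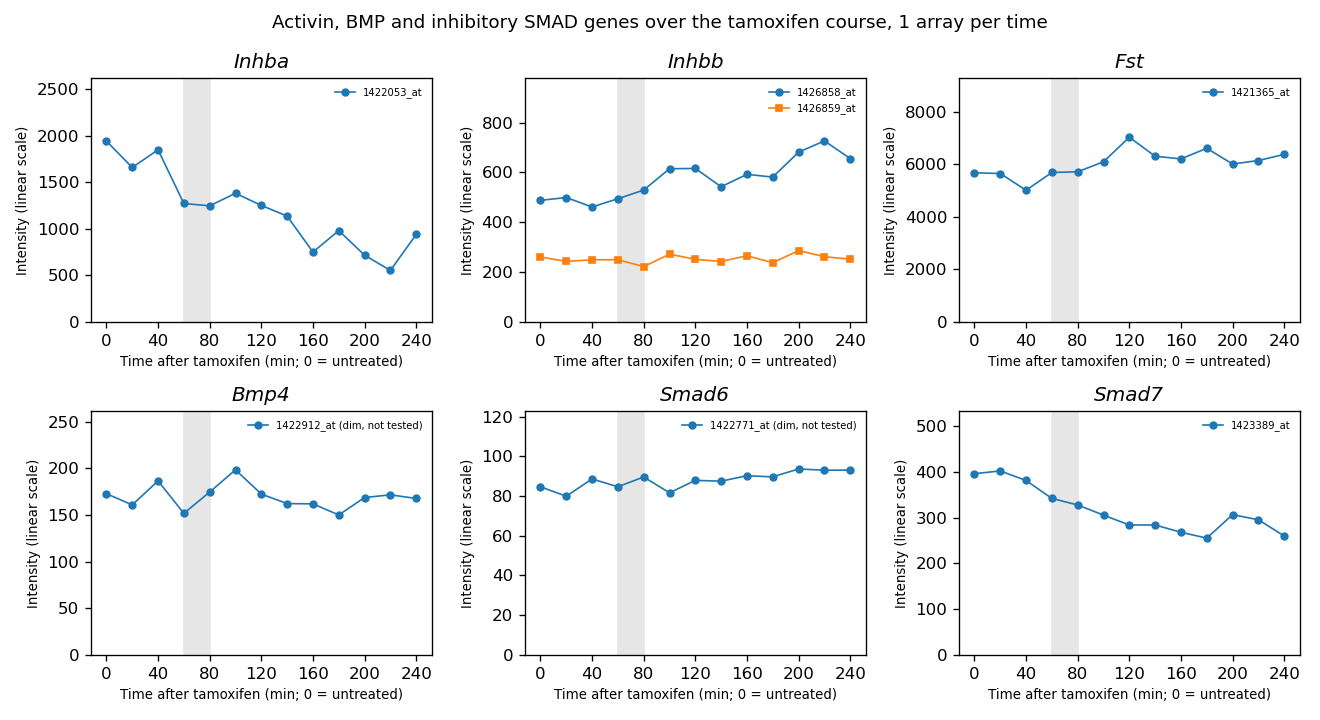
Intensity (linear scale, y axis) of each probe set of Inhba, Inhbb, Fst, Bmp4, Smad6 and Smad7 against time after tamoxifen (min, x axis, 0 is untreated), 1 point per array, with the interval from 60 to 80 min shaded. Inhba goes from 1943 to 939.8 and Smad7 from 395.9 to 259.8, while Inhbb 1426858_at and Fst end at 655.6 and 6372, above their untreated values of 487.7 and 5671.

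In all, 4 of the 11 tested probe sets had a linear trend: Inhbb 1426858_at and that of Fst rose and those of Inhba and Smad7 fell. Among all 12236 tested, 36.5% had a trend (20.3% upward and 16.2% downward), so a count of 4 in 11 is near that background. The spline, which allows any smooth shape, called Inhba (limma adjusted p = 0.00238), Inhbb 1426858_at (0.00761) and Smad7 (0.00126), 3 of 11 against 21.4% of all tested. Late against early called 5 of 11, 3 higher and 2 lower: those 4 and Id1. Among all tested it called 22.3%, 12.7% higher and 9.64% lower, but 1060 higher and 1466 lower with each array centred on its median. Id1 was higher by 0.39 ± 0.113 (SE; limma adjusted p = 0.0287). That call was lost without the 20, 40, 60, 220 or 240 min array (adjusted p from 0.0591 to 0.0948) and without the 200 and 220 min arrays together (0.118). Without the 80 min array, which stands with the early window here, Id2 (0.41 and 0.29), Id3 (0.22) and Id4 1423259_at (0.21) passed as well. Leaving it out also raised the count over all 12236 from 2734 to 3952. An earlier analysis of these arrays had found that many genes step between 60 and 80 min. With that step as a block none of the 4 slopes kept its call: Inhba was at -0.38 per hour (limma adjusted p = 0.0978) against -0.37 without the block, Inhbb at 0.11 (0.135), Smad7 at -0.08 (0.199) against -0.14, and Fst at 0.01 (0.879) against 0.06. Over all 12236 that fit called 1 probe set. Within the 9 arrays from 80 to 240 min none of the 4 was called either, with Inhba at -0.37 (0.167), Inhbb at 0.12 (0.207), Smad7 at -0.07 (0.367) and Fst at 0.01 (0.829).

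The ID genes had another shape, for which neither the line nor the spline gave a call: on the tested probe sets of Id1, Id2 and Id3 and on Id4 1423259_at, each of the 20, 40 and 60 min values lay below the untreated one, and the 80 min value lay above the 60 min one. Id3 stayed under its untreated value from 80 min on, and Id4 1423260_at was above its own at 40 min. Id1 (1425895_a_at) read 1780 untreated, then 1221, 1349 and 1251. From 80 min it read 1806, 1948, 1945, 1560, 1593, 1734, 1746, 1918 and 1895. The 3 arrays at 20 to 60 min were the lowest of the course, and the highest of them (1349) lay under the lowest later one (1560).

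Id2 followed the same order on both of its tested probe sets. On 1435176_a_at it read 664.9 untreated, 522, 619.5 and 542 at 20 to 60 min, 841.4 at 80 min, and from there on it stayed within 664.8 to 851.9. On 1422537_a_at it read 504.7, then 379.2, 462 and 411.1, then 577.3 at 80 min and a range of 464.7 to 641.6 from there on. On each probe set the arrays at 20 to 60 min and those from 80 min did not overlap, though on the dimmer one they came close at 462 and 464.7. How many of all tested probe sets had such a gap was not counted, and 32.6% of them passed the limma comparison of these groups of arrays. The untested probe set 1453596_at stayed between 91.67 and 116.2.

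Id3 (1416630_at) was highest in untreated cells. It read 1686 there, 1144, 1330 and 1332 at 20 to 60 min and 1535, 1537 and 1526 at 80 to 120 min, and between 1327 and 1557 over all 9 arrays from 80 min. Here the groups overlapped, since the 180 min array (1327) lay under the 40 and 60 min arrays, and no later array came back to the untreated value.

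Id4 has 3 probe sets drawn from the same source sequence. Probe set 1423259_at read 303.7 untreated, 289.8, 298.6 and 270 at 20 to 60 min, 355.9 at 80 min, and from there on it stayed within 314.6 to 379.1, with no overlap. On 1423260_at the values were 188.3 untreated, 174 to 200.7 at 20 to 60 min and 193 to 224.5 later, which overlapped. The untested 1450928_at read 125.6 untreated, 110.5 to 114.4 at 20 to 60 min and 123.4 to 158 later.

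**Figure D2:**
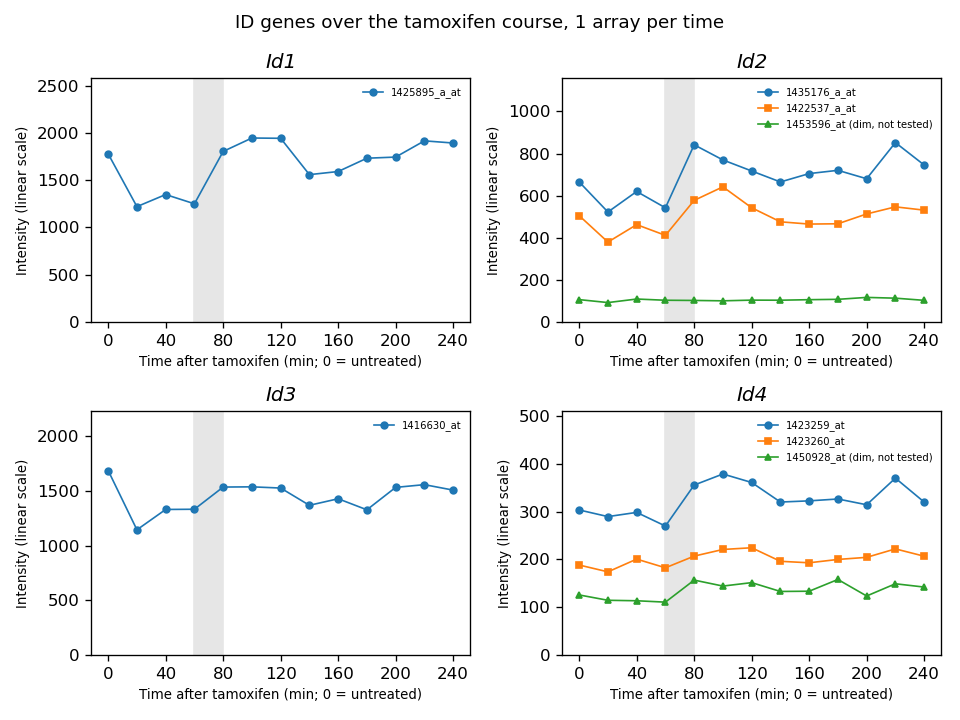
Intensity (linear scale, y axis) of each probe set of Id1, Id2, Id3 and Id4 against time after tamoxifen (min, x axis, 0 is untreated), 1 point per array, with the interval from 60 to 80 min shaded. Id1, the 2 tested Id2 probe sets and Id4 1423259_at are lowest at 20 to 60 min and higher after the shaded interval (Id1 from 1251 to 1806), the dim Id2 1453596_at is not (102.7 at 60 min and 101.8 at 80 min), and Id3 has its highest value, 1686, in the untreated array.

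Single steps between neighbouring arrays are given next for untreated to 20 min and for 60 to 80 min. With 1 array per time, a change of the cells and a difference of 1 array cannot be told apart. From untreated to 20 min Id3 changed by -0.55, Id1 by -0.54 and Id2 by -0.40 and -0.34 on the log2 scale. As a description, 0.212%, 0.221%, 0.433% and 0.711% of the 12236 tested probe sets had as low a difference between these 2 arrays, whose median difference was -0.01. Id4 was at -0.06 and -0.10, which 28% and 16.8% of probe sets matched or undercut. From 60 to 80 min Id2 differed by 0.62 and 0.47, Id1 by 0.53, Id4 by 0.38 and 0.17, and Id3 by 0.20. As high a difference was found in 0.801% and 2.01% of probe sets for Id2, 1.39% for Id1, 4.04% and 18.2% for Id4 and 14.4% for Id3. These are differences between single arrays and have no test. With the untreated array left out, the spline called Id1 (limma adjusted p = 0.0163), Id2 1422537_a_at (0.0404) and Id3 (0.0223). It called neither Id2 1435176_a_at nor the tested Id4 probe sets, whichever single array was left out. Over all 12236 the spline called 1730 to 3702 with 1 array left out, against 2621 with all 13.

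To give that pattern a size and an error, the course was cut into untreated, 20 to 60 min (3 arrays) and 80 to 240 min (9 arrays), a division chosen after these values had been seen. The comparisons between these levels therefore describe the pattern, and their adjusted p-values are not independent evidence for it. From 20 to 60 min to 80 to 240 min, 10 of 11 tested probe sets passed, 8 higher and 2 lower, against 32.6% of all 12236 (16.5% higher and 16.1% lower). Id1 was higher by 0.49 ± 0.0695 on the log2 scale (SE; limma adjusted p = 0.00017), 1.40-fold, from 10.33 ± 0.0739 to 10.82 ± 0.12 (SD over 3 and 9 arrays). Id2 was higher by 0.40 ± 0.0767 (limma adjusted p = 0.00148) and 0.33 ± 0.0887 (0.0119), Id4 by 0.24 ± 0.0618 (0.00884) and 0.15 ± 0.0538 (0.0412), and Id3 by 0.22 ± 0.0604 (0.0122). All 6 tested ID probe sets were thus higher, as were Inhbb 1426858_at (0.33, adjusted p = 0.00698) and Fst (0.20, 0.00922), while Smad7 (-0.37, 0.00142) and Inhba (-0.71, 0.0294) were lower. With each array left out in turn, the values of Id1 and of Id2 1435176_a_at were 0.46 to 0.53 and 0.35 to 0.47.

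Other calls of this comparison were lost with single arrays left out. Without the 20 min array Id3 was at 0.15 (limma adjusted p = 0.103) and Id2 1422537_a_at at 0.26 (0.0796), and without the 60 min array Id4 1423259_at was at 0.20 (0.0528). Id4 1423260_at lost its call without any of the 20, 60, 80, 100, 120, 220 or 240 min arrays (adjusted p from 0.0521 to 0.213). It also lost it among all 20393 probe sets (0.0592), where the third Id4 probe set, 1450928_at, was higher by 0.31 ± 0.0591 (0.00187). Inhba lost its call without the 20 min array (-0.67, adjusted p = 0.0989), without the 40 min array (-0.59, 0.148) and with robust moderation (-0.71, 0.0527). Fst lost it without the 40 min array (0.14, 0.0887).

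The difference of 20 to 60 min from untreated rested on 1 untreated array and did not pass for any ID gene. It was largest for Id1 and Id3, smaller for Id2 and within 1 SE of 0 for Id4. Id1 was at -0.48 ± 0.12 on the log2 scale (SE; 95% interval -0.74 to -0.22; limma adjusted p = 0.975) and Id3 at -0.41 ± 0.105 (95% interval -0.63 to -0.19; adjusted p = 1). Id2 was at -0.24 ± 0.133 and -0.27 ± 0.154, and Id4 at -0.08 ± 0.107 and -0.02 ± 0.0932. By size Id1 and Id3 ranked 36th and 57th of 12236. With limma 0% of the 12236 probe sets (0 in number) passed this comparison, and 212 (1.73%) had an unadjusted p under 0.05. For the fixed window of 20 to 80 min against untreated 0 passed as well, with 206 (1.68%) under an unadjusted 0.05. Each share is below the threshold itself.

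Against the untreated array, 1 probe set passed at 80 to 240 min. Smad7 was lower from 80 min by 0.45 on the log2 scale (-0.45 ± 0.112, SE; limma adjusted p = 0.0229), and 1 in 11 is near the 10.6% called among all tested (5.45% higher and 5.16% lower). Id1 was at 0.01 ± 0.11 (95% interval -0.23 to 0.24; adjusted p = 0.978), Id2 at 0.15 ± 0.121 and 0.06 ± 0.14, and Id3 at -0.19 ± 0.0955 (95% interval -0.39 to 0.02; adjusted p = 0.227). Inhba was at -1.01 ± 0.365 (adjusted p = 0.0921; 0.044 without the 200 and 220 min arrays). The interval of Id1 reaches to both sides of 0, and that of Id3 lies almost wholly below it. Between 180 to 240 min and 100 to 160 min limma called 0 of 12236 probe sets (0%). Under an unadjusted p of 0.05 there were 670 (5.48%), a share near the threshold itself. Inhba (0.0327, difference -0.50 ± 0.207) and Inhbb 1426858_at (0.0462, 0.15 ± 0.0702) were among these, each with a limma adjusted p of 0.747. Set as 0 to 60 min against 80 to 240 min, the step called 9 of 11, 7 higher and 2 lower, against 39.1% of all tested (20.2% higher and 18.9% lower). That break was found on these same arrays and the counts are a description.

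**Figure D3:**
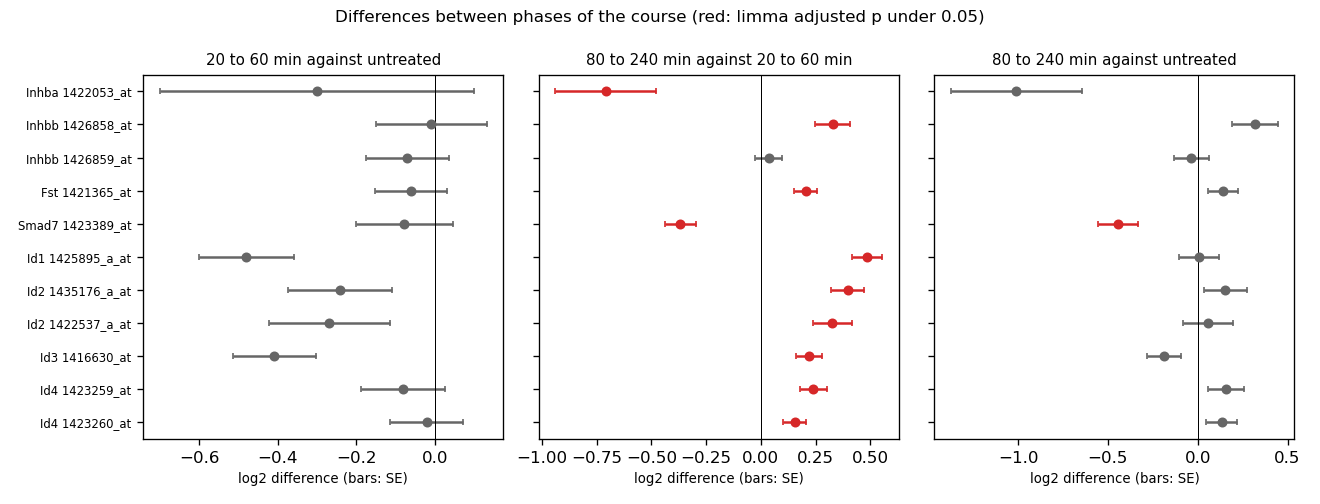
Differences on the log2 scale (x axis) of the 11 tested probe sets (y axis) between the untreated array, 20 to 60 min (3 arrays) and 80 to 240 min (9 arrays); points are limma estimates, bars their SE, and red marks an adjusted p under 0.05. In the middle panel the 6 ID probe sets lie to the right of 0, Id1 farthest at 0.49, and in the right panel only Smad7 is red, at -0.45.

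Pairwise likeness over the 13 arrays was high among most ID probe sets. This is a description, since the share of all pairs of tested probe sets as alike was not counted. Pearson's r was 0.89 between Id1 and each tested Id2 probe set, 0.82 between Id1 and Id3, and 0.83 and 0.82 between Id1 and the tested Id4 probe sets. Among ID pairs it was lowest between Id3 and Id4 1423259_at, at 0.55. Some other members were closer than that to Id1. Their r with Id1 was 0.70 for Inhbb 1426858_at, 0.605 for Fst, 0.23 for Inhbb 1426859_at, -0.40 for Inhba and -0.56 for Smad7. The 2 Inhbb probe sets had an r of 0.49. Among 7805 other named genes, the closest in pattern to Inhba were Slk (r = 0.97), Cul1 and Trmt10c, and those closest to Smad7 were Klk7 (r = 0.97), Rhob and Gfpt1. Inhbb 1426858_at was closest to Lrpap1 (r = 0.98), Atraid and Tmem208, and Fst to Polr2b (r = 0.92), Spc25 and Adss.

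The rest of the pathway was read from a list of 127 genes by role, of which 105 were on the array and 62 were bright enough to test, 1 probe set per gene. Along the linear trend 9 rose and 12 fell, 21 of 62 in all against 36.5% of all tested probe sets, with a median slope of -0.01 per hour against 0.0035 over all tested. The list was drawn up with earlier results of these data known.

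Among all tested probe sets 20.3% rose and 16.2% fell, the shares to set beside the small counts of each role. Of 6 tested ligand genes 2 rose and none fell: Tgfb1 by 1.21-fold in 4 h (limma adjusted p = 0.00982) and Bmp7 by 1.17-fold (0.00855). Bmp2, at percentile 7.93, Tgfb2 and Tgfb3 were too dim to test. Of 8 tested receptor genes 2 rose, Acvr1b, a type I activin receptor, by 1.33-fold (adjusted p = 0.00396) and Tgfbr2, the type II TGF-beta receptor, by 1.16-fold (0.0184). The BMP receptor gene Bmpr1a (0.935) and the activin receptor gene Acvr2a (-0.12 per hour, 0.0616) did not pass. Smad1, Smad2, Smad3, Smad4 and Smad5 were tested and none passed, with slopes between -0.03 and 0.02 per hour.

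Among extracellular antagonists and carriers 1 of 9 moved, against 36.5% of all tested probe sets. It was Sostdc1, a secreted BMP and Wnt antagonist. Sostdc1 read 240.9 untreated, 212.2 at 60 min, 457.2 at 80 min and 577.6 at 240 min, a fitted 2.42-fold rise (limma adjusted p = 0.000953). Of 15 tested intracellular antagonists and cofactors 5 fell and 2 rose, against 16.2% lower and 20.3% higher among all tested probe sets. Tgif1, a SMAD corepressor, fell 1.60-fold (adjusted p = 0.00049), Trim33, a ubiquitin ligase, 1.56-fold, Nedd4l, another, 1.49-fold, and Skil (SnoN), a feedback inhibitor of SMADs, 1.46-fold. Rnf111, which marks SnoN and Smad7 protein for degradation, fell 1.27-fold, and Ski and Tgif2 rose 1.28-fold and 1.27-fold (these 3 were named after their values were seen).

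Of 16 tested SMAD target genes 6 fell and 2 rose, against the same shares of 16.2% lower and 20.3% higher among all tested. Ccn2, a matricellular protein gene, read 1981 untreated, 1779 at 60 min, 1060 at 80 min and 786.7 at 240 min, a fitted 2.02-fold fall (limma adjusted p = 0.00416). Tsc22d1 fell 1.51-fold, the Notch-responsive repressor gene Hes1 1.36-fold and Klf10, a TGF-beta-inducible repressor, 1.34-fold. Junb and Snai2 also fell (1.23-fold and 1.25-fold), and Msx2, a homeobox target of BMP, and Cdkn2b, a cell cycle inhibitor, rose (1.19-fold and 1.18-fold); these 4 were named after their values were seen. Of the ID proteins' partners Tcf12 fell 1.18-fold (adjusted p = 0.0208), while Tcf3 and Tcf4 did not pass (0.474 and 0.357). These genes answer to many signals besides SMADs, so the counts describe the list and no more.

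**Figure D4:**
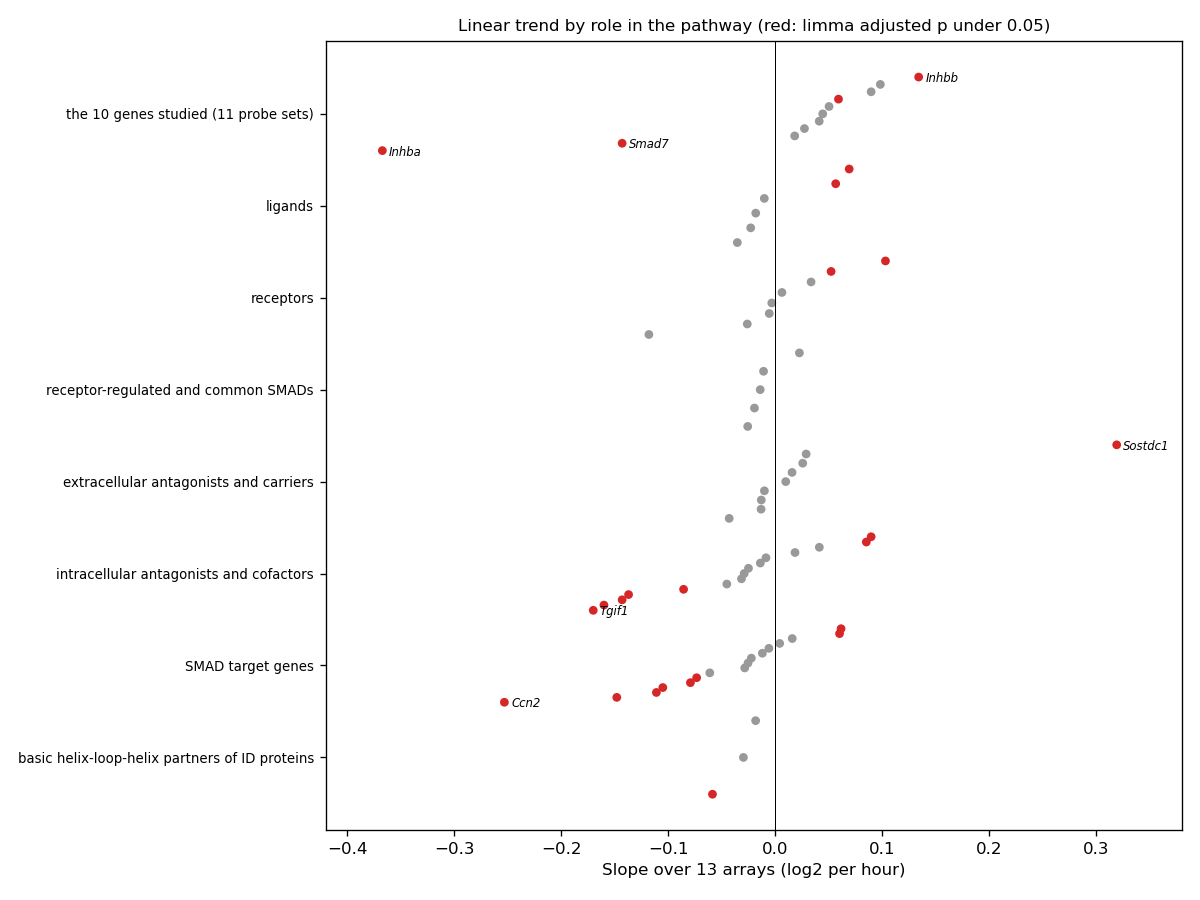
Slope of the linear trend (log2 per hour, x axis) of each tested gene by its role (y axis), 1 point per gene, or per probe set in the top row; points within a row are stacked in order of slope, and red marks a limma adjusted p under 0.05. Inhba (-0.37), Ccn2 (-0.25) and Sostdc1 (0.32) lie farthest from 0, and no SMAD of the receptor-regulated and common row is red.

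Markers of the cells in the culture were summed over the same arrays, as intensity over the marker probe sets of each list. The 7 keratinocyte markers summed to 51730 untreated, 49880 to 52450 at 20 to 60 min and 50830 to 53860 later. Of the 6 tested, Krt5 rose along the line (1.08-fold in 4 h, limma adjusted p = 0.00934). Krt5 (0.08, limma adjusted p = 0.0047) and Itga6 (0.25, 0.0012) were higher from 80 min than at 20 to 60 min, and none passed as lower. Itga6 read 2259 untreated, 2136 at 20 min, 1918 at 60 min and 2321 at 80 min. The 11 fibroblast markers, whose cells also express Inhba, Fst and Bmp4, summed to 2584, 2693 to 2930 and 2511 to 3012. Of the 4 tested, Fbln1 rose along the line (1.17-fold in 4 h; limma adjusted p = 0.00282).

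The 7 melanocyte markers summed to 6455 untreated, 6696 to 7380 at 20 to 60 min and 6127 to 6809 later, ranges that overlap. The untreated sum lay below that of each array at 20 to 60 min. The 20 min array, lowest for Id1, Id2 and Id3, was at 6696, the low end of the range at 20 to 60 min. Of the 6 tested, Pmel (-0.17, limma adjusted p = 0.0436) and Mitf (-0.25, 0.0122) were lower from 80 min than at 20 to 60 min, and Mitf fell along the line (0.00804). The 8 immune markers summed to 1774, 1574 to 1794 and 1501 to 1732. Ptprc, which marks all leukocytes, was at percentile 1.96, and Cd68, a macrophage and lysosome gene, fell 1.46-fold (limma adjusted p = 0.00117). The 7 endothelial and muscle markers summed to 3666, 3532 to 3634 and 3566 to 4331. Acta2, smooth muscle actin, stood at percentile 95.7 and rose 1.17-fold (limma adjusted p = 0.0181), while Pecam1 and Cdh5 were at percentiles 21.3 and 10.4. The part of these cells in the results was not tested, and in bulk RNA fewer cells of a type and less RNA per cell cannot be told apart.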

How the data were processed

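Biotin-labelled cRNA of Trizol-extracted total RNA was hybridised to Affymetrix arrays, per the labels' protocols, with 1 array for each of 13 times. The authors' deposited unit is a linear-scale intensity, 1 per probe set and array, and the software behind it was not given in the sources used here. The platform table gave 1 gene to 20393 probe sets, several to 691 and none to 1606, and the last 2 kinds were left out. Symbols were updated through Entrez identifiers for 20364 of them with RefSeq's table. Values were used as log2(intensity + 16) without further normalization, and such a scale understates changes of dim genes.

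All models used limma 3.58.1 in R 4.3.3 (lmFit, eBayes with intensity trend, two-sided, Benjamini-Hochberg over the probe sets tested, threshold 0.05). They were a straight line in time, a natural cubic spline with 3 degrees of freedom, 4 windows (untreated, 20 to 80, 100 to 160 and 180 to 240 min), a step after 60 min, and 3 levels chosen after seeing the data. On simulated data a log2 change of 0.5 was recovered for 80% of probe sets by the line, 91% by 80 to 240 min against 20 to 60 min and 57% by 20 to 60 min against untreated. The simulation used independent normal noise with each probe set's residual SD about the spline, and changes of the shape each of these comparisons seeks. It held no step shared by many genes, as these arrays do, so these percentages are not the power in the real data. All 10 genes' probe sets are reported. Other pathway genes were named if past the linear threshold, up to 4 per role by slope, with others named outside this rule, after their values were seen, to show genes that did not pass or were too dim; like genes were named by the 3 highest correlations for each gene called by the line or spline. The members and lists were chosen with earlier results of these data known. Alternatives were other pseudocounts, filters, normalizations, moderation, weights, time scales, 1 probe set per gene and each array left out.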

Additional observations from a re-analysis of the deposited data

How the results depend on the processing

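Of 259 member results that passed and were refitted under settings other than leaving out 1 array, 244 kept their direction and call, 15 lost the call and 0 turned. With 1 array left out, 273 of 298 kept both and 25 lost the call. Of 469 that had not passed, 18 gained a call and 19 turned sign, and with 1 array left out 15 of 538 gained one and 7 turned. Leaving out single arrays moved 4 uncalled results through 0: the Id3 slope (-0.00231 to 0.0655), Inhbb 1426858_at (-0.0297 to 0.0256) and Id4 1423260_at (-0.0737 to 0.0213) at 20 to 60 min against untreated, and Id1 at 80 to 240 min against untreated (-0.00864 to 0.031). With array weights the spline called Id1 (limma adjusted p = 0.0199), both Id2 and both Id4 probe sets and Fst, and late against early called all 6 ID probe sets. Calls over all 12236 tested probe sets also rose with these weights. They went from 2621 to 5068 for the spline and from 2734 to 5368 for late against early.

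Sign turns without a call, on the log2 scale, were these. With the step as a block the slopes per hour were -0.0292 for Id1, -0.0749 and -0.0277 for Id2, -0.0222 for Id3 and -0.0578 and -0.00824 for Id4. From 80 to 240 min alone they were -0.0665 and -0.0145 for Id2, -0.00414 for Id3 and -0.0516 and -0.0105 for Id4. With array weights the slopes of Inhbb 1426859_at and Id3 were -0.00332 and -0.011, Inhbb 1426858_at at 20 to 60 min against untreated was 0.00495, and Id1 at 80 to 240 min against untreated was -0.0148 (-0.00284 without the 200 and 220 min arrays). At 20 to 60 min against untreated, Id4 1423260_at was 0.0147 with quantile normalization and 0.00565 with median centring, and Inhbb 1426858_at 0.0175 with median centring.

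Counts over all probe sets moved more. The line called 4463, but 2968 with 1 probe set per gene (7436 tested), 1 with the step as a block and 3 from 80 to 240 min alone. The step called 4782 and 3104 with 1 probe set per gene, and 80 to 240 against 20 to 60 min 3995 and 2661. With array weights the spline called 5068 (2621 without), late against early 5368 (2734) and 80 to 240 min against untreated 2271 (1298). Without the 200 and 220 min arrays late against early called 742, 284 higher and 458 lower. Without a filter 1 probe set passed each of the comparisons of 20 to 80 and of 20 to 60 min with untreated. With 1 array left out the counts ranged from 3346 to 4659 for the line, 1730 to 3702 for the spline, 1255 (without 20 min) to 3952 (without 80 min) for late against early, 3637 to 4922 for the step, 2377 (without 40 min) to 4153 for 80 to 240 against 20 to 60 min and 963 to 1458 for 80 to 240 min against untreated, and stayed at 0 for the other 3. The cause of these moves was not tested. No paired analysis was possible because each time has 1 array. The number of arrays limits the precision, with a median residual SD of 0.088 on the log2 scale about the spline.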
